A study of Homo sapiens with 37 samples.

Results

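The genes described here encode the isozymes of 4 glycolytic enzymes: the hexokinases HK1 and HK2, the phosphofructokinase subunits PFKL, PFKM and PFKP, the enolases ENO1, ENO2 and ENO3, and the lactate dehydrogenase subunits LDHA and LDHB. They were chosen by name, as the Ensembl identifiers that carry these 10 symbols, and all 10 were found among the 32055 identifiers of the count table. All 10 also passed the filter on low counts that left 10661 genes for testing. Glycolysis splits glucose into pyruvate, and at several of its steps the reaction is catalysed by closely related enzymes encoded by separate genes. Tissues use them in different proportions, so the share of each isozyme describes the metabolic type of a cell beside the total amount of enzyme. Hexokinase traps glucose in the cell as its phosphate, phosphofructokinase commits it to glycolysis, enolase makes phosphoenolpyruvate late in the pathway, and lactate dehydrogenase interconverts pyruvate and lactate.

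The cells were K562, an established human erythroleukemia line. The KO group held 26 libraries of cells that had received the plasmid px458, which encodes Cas9 and GFP, with a gRNA against ZBTB7A, a transcriptional repressor, and the Control group held 11 libraries of cells given the plasmid without a gRNA. GFP-positive single cells were sorted and grown out, so the libraries stem from clones, but the labels name each library only by a well barcode of 6 bases and its group and give no clone, gRNA or replicate number. RNA was read by bulk SCRB-seq, which tags cDNA molecules with unique molecular identifiers (UMIs) and sequences their 3′ ends, so that each count stands for captured molecules and does not grow with transcript length.

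Totals ranged from 1070250 to 4270901 UMIs in the KO libraries (median 2030965) and from 563235 to 4710809 in the Control libraries (median 3518944). The KO libraries were thus shallower at the median, though the shallowest library of all was the Control library GTTTAT. ZBTB7A itself did not pass the test (log2 fold change 0.12, SE 0.09, adjusted p = 0.331 by edgeR's quasi-likelihood test), but a 3′ read does not show whether the coding sequence is edited. The authors report checking the expanded clones for ZBTB7A by Western blot and by Sanger sequencing. The labels do not link a library to those checks. Of 9 erythroid genes that define K562, 8 were in the table, and their summed level, in UMIs scaled to raw library totals (CPM without TMM, a factor that adjusts library sizes), ran from 2881 to 9435 in KO and from 3859 to 8313 in Control libraries. Of 10 markers of other cell types, 9 were in the table, and their summed level ran on the same scale from 109 to 244 in KO and from 181 to 306 in Control libraries. Nearly all of this was EPCAM, with 15808 UMIs, and CD3D, with 1498. The part of these marker differences in the results was not tested, and in such bulk samples fewer cells of a kind cannot be told apart from less RNA per cell.

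The libraries fell into sets. Clustered by average linkage on 5523 genes with the isozyme genes left out, 25 of the 26 KO libraries formed 5 sets of 4, 6, 6, 5 and 4 libraries, and 10 of the 11 Control libraries formed 2 sets of 5, and each of these 35 libraries had its closest neighbour in its own set. The KO sets are numbered here from 1 to 5 and the Control sets 1 and 2. Pairs of KO libraries from the same set had a median chi-square per degree of freedom of 1.58 (range 1.14 to 3.29, 52 pairs), against 5.58 (range 3.01 to 8.77, 273 pairs) for pairs from different sets. The Control sets were less clearly apart, with 2.88 (range 1.44 to 5.53, 20 pairs) within sets against 3.82 (range 1.551 to 7.91, 35 pairs) between them. The KO-labelled library GGCCAC clustered with Control set 2, and the Control library GTTTAT stood alone. Whether a set is the repeat libraries of 1 clone cannot be told from the labels. The p-values over 26 and 11 libraries therefore measure the spread between libraries, and the tests of genes and shares were repeated with the sets as the unit, which leaves 6 KO and 3 Control units. Family sums and the ranking of genes by likeness were computed over libraries alone.

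Over libraries, 5 of the 10 isozyme genes passed an adjusted p of 0.05, beside 33.8% of all genes tested. ENO2, the neuronal enolase, and ENO3, the muscle enolase, were higher in the KO libraries, where 17.7% of all genes passed in that direction. HK2, the inducible hexokinase, and both lactate dehydrogenase genes were lower, where 16.2% of all genes passed. ENO2 and ENO3 also exceeded a log2 fold change of 0.5, rules that 10.2% of all genes met together, 6.65% as higher and 3.53% as lower. The groups overlapped for each of the 10, where 0.281% of all genes had no overlap. The median log2 fold change was 0.02 over the 10 genes and -0.0046 over all genes tested. With the UMI counts of each set summed and the sets as the unit, none of the 10 passed in edgeR or in limma-voom. HK2 and ENO2 then had an unadjusted p under 0.05 in edgeR, 2 of the 10 genes, beside 12.3% of all genes in that fit, or 15.2% without GGCCAC.

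**Figure D1:**
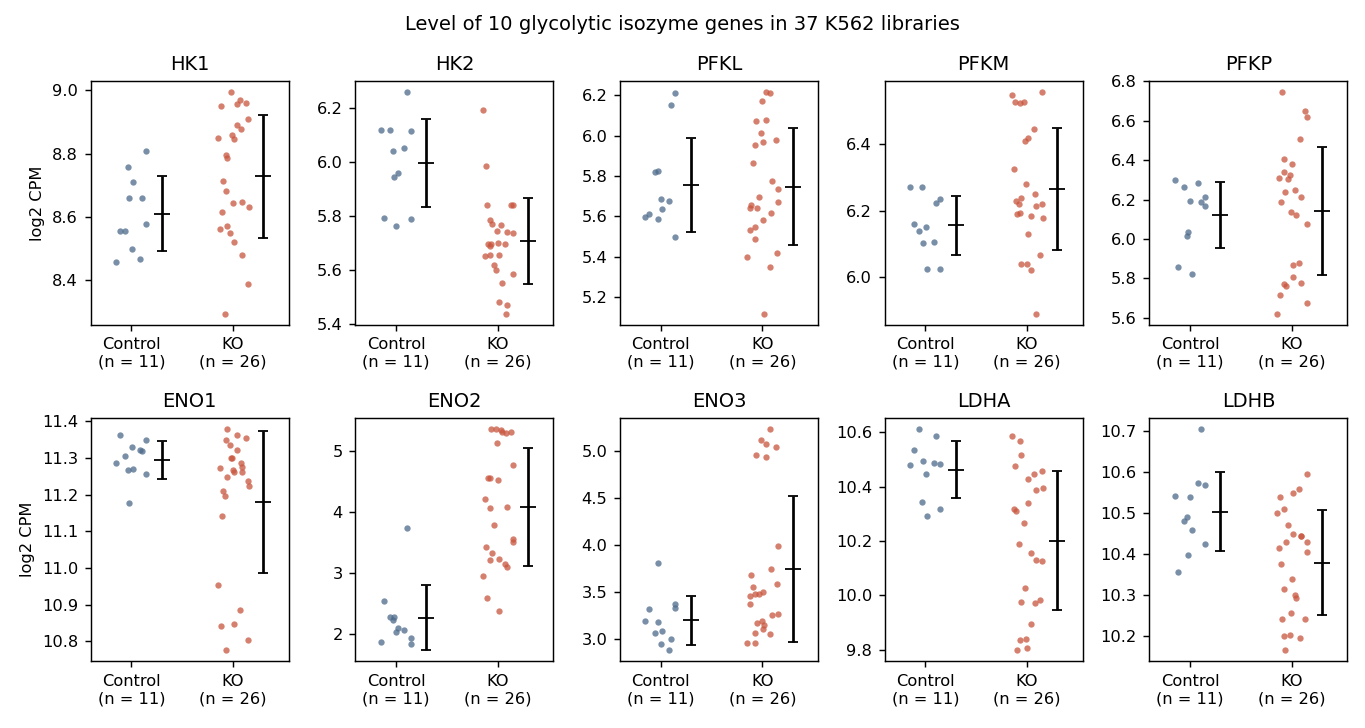
Level of each isozyme gene in log2 CPM (after TMM scaling) in 11 Control (blue) and 26 KO (red) libraries, 1 point per library, with the mean and SD beside them in black; the vertical axes differ between panels and do not start at 0. ENO2 spans 1.84 to 3.74 in Control and 2.38 to 5.36 in KO libraries, and the levels of ENO1 and ENO3 in KO libraries are split by a gap.

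The hexokinase pair shifted towards HK1. HK1, the housekeeping form found in most tissues (ENSG00000156515, GRCh38 chr10:69269984-69401884, plus strand), gave 224 to 1895 UMIs in Control and 453 to 2079 in KO libraries. HK2 (ENSG00000159399, chr2:74834127-74893359, plus strand) gave 42 to 278 UMIs in Control and 57 to 269 in KO libraries. HK2 fell by 0.27 on the log2 scale (SE 0.06, adjusted p = 6.12e-04, edgeR), while the difference in HK1 did not pass (log2 fold change 0.13, SE 0.06, adjusted p = 0.106).

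The HK2 share of hexokinase UMIs had its lowest value, median and highest value at 12.5, 13.1 and 16.4% in the Control libraries and at 8.31, 10.9 and 13.95% in the KO libraries. Of the 26 KO libraries, 23 lay below every Control library, and GGCCAC (12.6%) was 1 of the 3 that did not. The mean share was 13.96% ± 1.498 (SD, n = 11) in Control against 10.9% ± 1.44 (SD, n = 26) in KO libraries, a difference of -3.03 percentage points (SE 0.532, two-sided permutation p = 1e-05, the smallest that 100000 resamples can give). HK1 made up the rest, 86.0% and 89.1% on average. The HK2 share was the 1 share of 8 compared that also passed with sets as the unit. Set means ran from 9.36 to 12.6% in 6 KO units and from 12.98 to 15.8% in 3 Control units. The exact permutation p was 0.0119, the smallest this design allows. The highest KO unit was the single library GGCCAC, and without it the exact permutation p was 0.0179, again the smallest possible. The highest Control unit was the single library GTTTAT, with 42 of 266 hexokinase UMIs. Its Wilson interval for counting error, 11.9 to 20.7%, reached into the range of the KO units. The Control sets merged at a distance of 0.025, and the test was not repeated with them merged. Among libraries with an AT-rich barcode alone, 12 KO and 8 Control, the difference was -3.21 points (exact permutation p = 1.59e-04). KO set 2, with the lowest mean share (9.36%), gave 5 of these 12 KO libraries. Spearman rho of HK2 share and total UMIs was 0.42 in KO (n = 26) and -0.55 in Control libraries (n = 11). The part of depth in the HK2 share difference was not tested. The 8 shares were tested without adjustment between them.

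The stretches upstream of the HK2 and LDHA starts are shown because both genes fell, with a stretch of the ENO2 promoter because ENO2 rose. Capitals mark ACGTG or its reverse complement CACGT, the core bound by hypoxia-inducible factors, the E-box CACGTG, the site of MYC and its partners, and GACCC, a core found in sites of ZBTB7A. The sequences are from RefSeq on GRCh38.p14, which held promoters for all 10 genes, and all 3 lie on the plus strand.
HK2, chr2:74833877-74834126: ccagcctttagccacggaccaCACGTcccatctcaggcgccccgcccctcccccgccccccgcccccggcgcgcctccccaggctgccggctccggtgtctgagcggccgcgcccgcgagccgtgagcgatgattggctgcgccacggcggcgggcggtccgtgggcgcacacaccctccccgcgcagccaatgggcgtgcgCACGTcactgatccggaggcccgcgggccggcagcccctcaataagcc
LDHA, chr11:18394313-18394552: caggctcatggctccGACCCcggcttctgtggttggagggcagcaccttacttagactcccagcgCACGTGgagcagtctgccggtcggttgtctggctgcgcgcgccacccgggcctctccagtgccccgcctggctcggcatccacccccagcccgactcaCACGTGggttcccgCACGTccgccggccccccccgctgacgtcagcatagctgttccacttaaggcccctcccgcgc
ENO2, chr12:6914450-6914479: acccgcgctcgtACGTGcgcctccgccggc
Both strands were searched in windows of 300 bases, and ACGTG, which also lies within CACGTG, was found in 21.4% of all 35116 RefSeq promoter windows, CACGTG in 7.26% and GACCC in 47.6%. The LDHA window printed here held 2 copies of CACGTG and a second LDHA window, from chr11:18396101, none, while the HK2 window printed here held none and a second HK2 window, from chr2:74834920, held 2. The ENO2 window also held 2 copies of GACCC outside the stretch shown, and that stretch lies inside the annotated span of ENO2. The windows of ENO1, LDHB and ENO3 held none of these letters. Genes that did not pass over libraries held some of them too. On either strand, ACGTG lay in windows of PFKM and PFKP, and GACCC in windows of HK1, PFKL, PFKM and PFKP.

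ENO2 had the largest change of the 10 genes. It lies at chr12:6913745-6923698 on the plus strand (ENSG00000111674) and was a minor isozyme throughout, with 7 to 23 UMIs in Control and 10 to 82 in KO libraries, against 1418 to 12055 and 2720 to 10002 UMIs of ENO1, the ubiquitous enolase (ENSG00000074800, chr1:8861000-8879190, minus strand). ENO2 was 2.28 higher on the log2 scale in the KO libraries (SE 0.37, adjusted p = 1.001e-05, edgeR). Its lowest, median and highest levels were 1.84, 2.11 and 3.74 log2 CPM (after TMM scaling, as for all levels given for the isozyme genes) in Control and 2.38, 4.07 and 5.36 log2 CPM in KO libraries.

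The ENO2 share of enolase UMIs was 0.107, 0.143 and 0.490% at its lowest, median and highest in Control libraries and 0.179, 0.657 and 1.61% in KO libraries. The highest Control value came from GTTTAT and rests on 7 of 1429 enolase UMIs (95% Wilson interval 0.237 to 1.01%). Without that library the Control libraries reached 0.190%, and 25 of the 26 KO libraries lay above it, with AAAACT at 0.179% (interval 0.113 to 0.283%) the exception. The mean share was 0.175% ± 0.108 (SD, n = 11) in Control against 0.808% ± 0.468 (SD, n = 26) in KO libraries, a ratio of 4.63 (permutation p = 1.80e-04). Intervals cover counting error only.

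**Figure D2:**
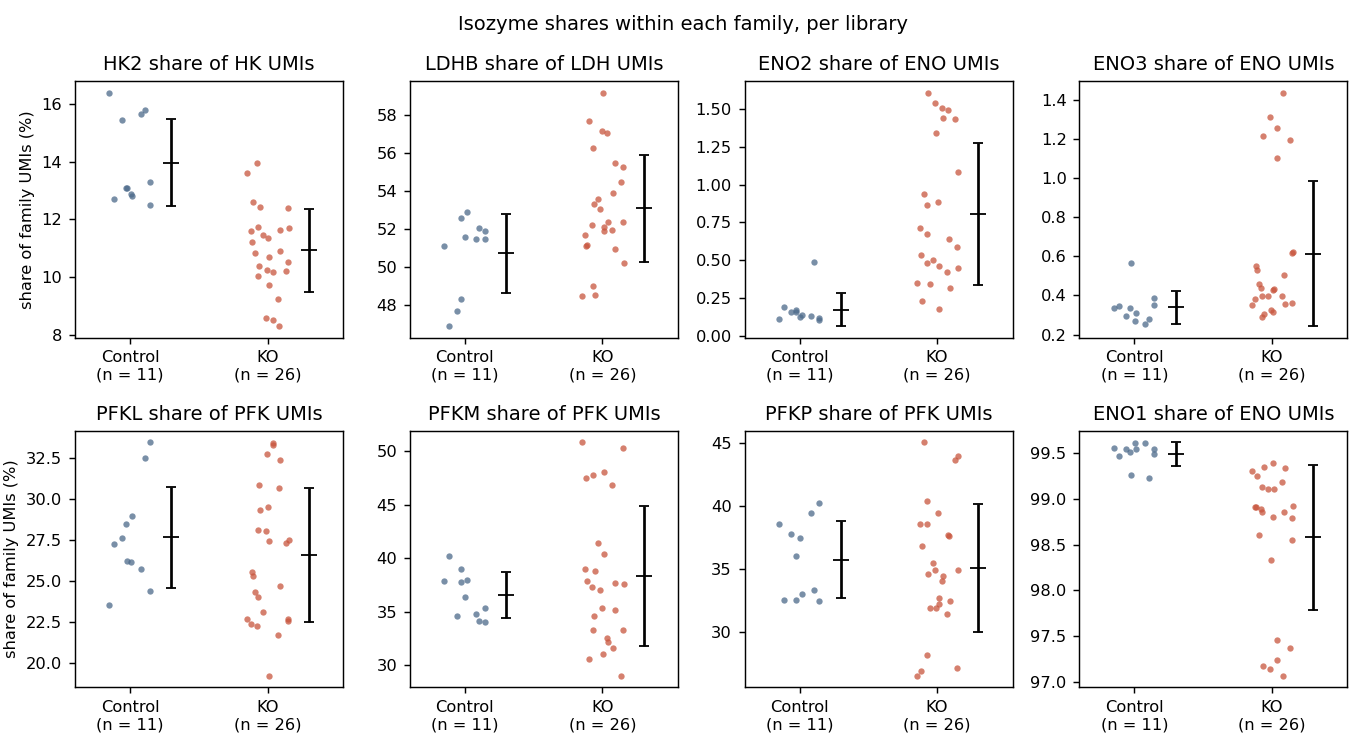
Share of each isozyme in the UMIs of its family, in percent, per library (Control blue, n = 11; KO red, n = 26), with mean and SD in black; the vertical axes do not start at 0. The HK2 share of 23 KO libraries lies below all Control libraries, and the ENO2 share of 17 lies above all of them.

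The KO sets differed in how much ENO2 they held, with 91.6% of the sum of squares of the ENO2 share among the 25 libraries lying between sets. In KO set 1 the share ran from 0.179 to 0.453%, in set 3 from 0.351 to 0.588%, in set 4 from 0.5002 to 1.08%, in set 5 from 0.862 to 1.34% and in set 2 from 1.43 to 1.61%. The Control sets stayed between 0.107 and 0.190%. All 5 set means of KO libraries thus lay above both Control sets, but GTTTAT counted as a unit overlapped them, and the difference with sets as the unit was 0.451 points (exact permutation p = 0.179), or 0.547 points without GGCCAC (exact permutation p = 0.125). The ENO2 share was higher where depth was lower among KO libraries (Spearman rho of share and total UMIs -0.70, n = 26, where libraries of a set share both), and rho was -0.23 among the 11 Control libraries. The part of depth in the difference was not tested. AT-rich barcodes alone gave 0.703 points (exact permutation p = 0.00298, 12 KO and 8 Control), with libraries as the unit. KO set 2, with the highest ENO2 shares, gave 5 of these 12 KO libraries and KO set 5 none. The part of the sets and that of the barcode therefore cannot be told apart there.

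**Figure D3:**
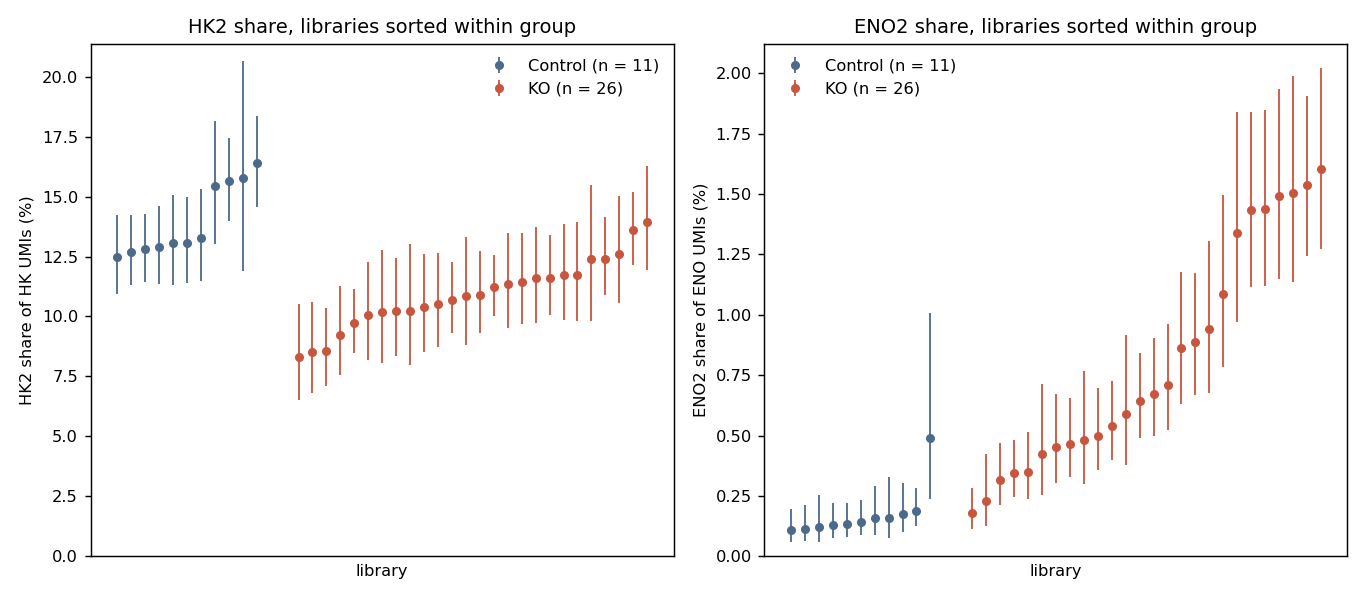
HK2 share of hexokinase UMIs (left) and ENO2 share of enolase UMIs (right), in percent, for every library sorted within its group (Control blue, n = 11; KO red, n = 26), with 95% Wilson intervals as bars. The widest Control interval for ENO2, 0.237 to 1.01%, belongs to the shallowest library.

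ENO3 (ENSG00000108515, chr17:4948092-4957131, plus strand) rose by 0.74 on the log2 scale over libraries (SE 0.27, adjusted p = 0.0330, edgeR), with 4 to 42 UMIs in Control and 9 to 70 in KO libraries. Its share of enolase UMIs was 0.256, 0.334 and 0.568% at its lowest, median and highest in Control and 0.287, 0.436 and 1.44% in KO libraries. The rise was carried by 1 set: the 6 libraries of KO set 2 lay between 1.10 and 1.44%, while the other 20 KO libraries lay between 0.287 and 0.623% and overlapped the Control libraries. The mean share was 0.340% ± 0.0856 (SD, n = 11) in Control against 0.614% ± 0.371 (SD, n = 26) in KO libraries (permutation p = 0.0164), and with sets as the unit the difference was 0.248 points (exact permutation p = 0.274). The same 6 libraries held the highest ENO2 shares. ENO3 overlaps the start of PFN1 on the opposite strand, which gave 99793 UMIs against 1091 of ENO3 over all libraries, and whether the counting used strand is not given in the sources used here. LRRC23 overlaps the start of ENO2 on the same strand and gave 292 UMIs against 1128 of ENO2. PFN1 did not pass the test (log2 fold change 0.08, adjusted p = 0.262, edgeR).

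ENO1 held nearly all enolase UMIs, 99.5% ± 0.127 (SD, n = 11) in Control against 98.6% ± 0.788 (SD, n = 26) in KO libraries, and its share was lower by -0.908 points (permutation p = 0.00100), or by -0.699 points with sets as the unit (exact permutation p = 0.155). The ENO1 share is what ENO2 and ENO3 leave of the family, so its tests repeat theirs and are no separate result. The level of ENO1 did not pass over libraries (log2 fold change -0.10, SE 0.06, adjusted p = 0.152, edgeR). The lowest, median and highest levels were 11.18, 11.31 and 11.36 log2 CPM in Control and 10.78, 11.26 and 11.38 log2 CPM in KO libraries. The 6 libraries of KO set 3 lay between 10.78 and 10.95 log2 CPM, below every other library, and the KO libraries outside that set lay within or close to the Control range.

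**Figure D4:**
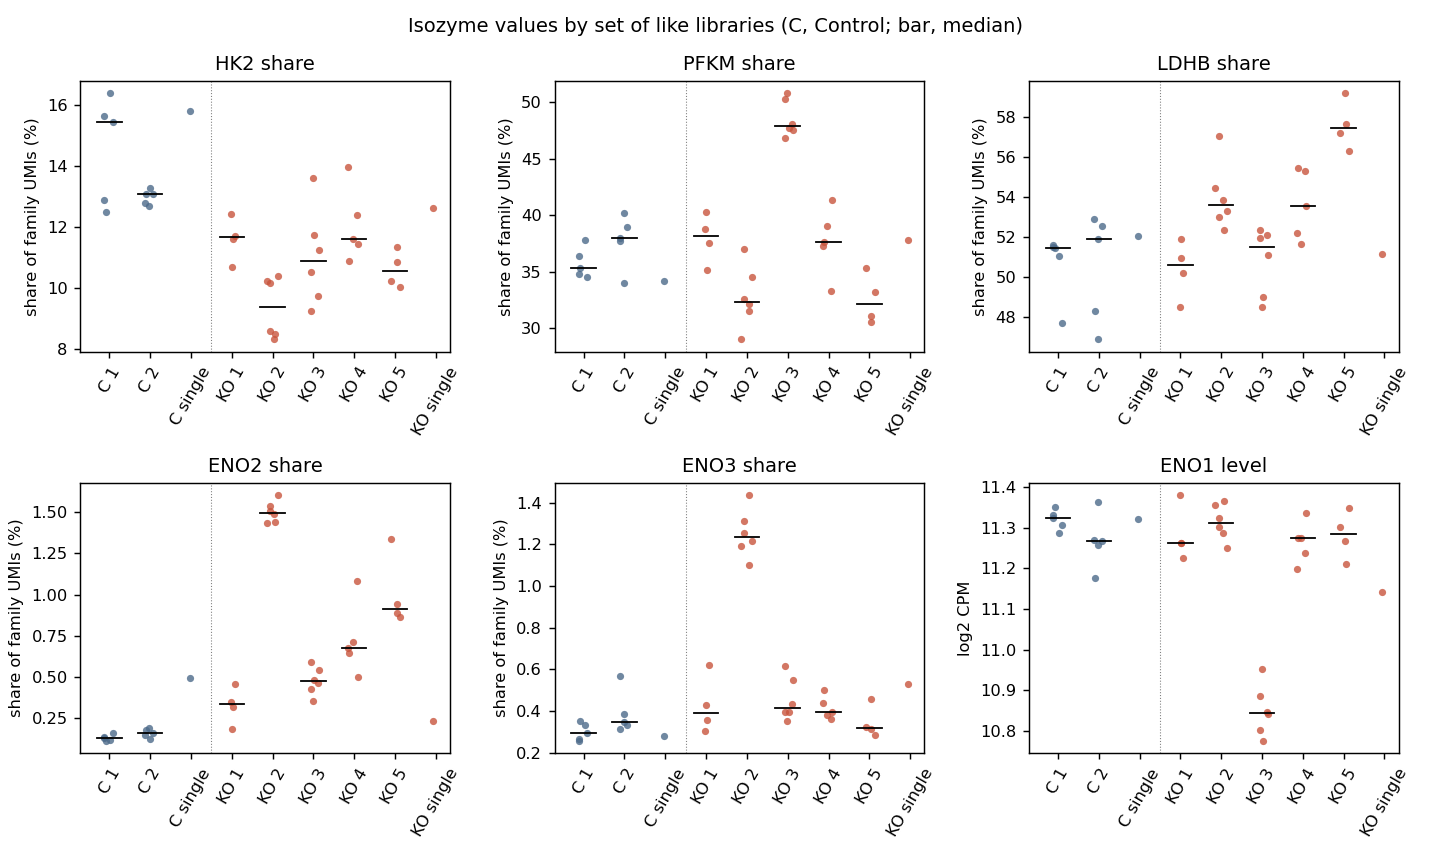
Share of family UMIs in percent (HK2, PFKM, LDHB, ENO2, ENO3) and log2 CPM (ENO1) per library, with libraries arranged by set (C, Control sets 1 and 2 and the single library GTTTAT, blue; KO sets 1 to 5 and the single library GGCCAC, red); bars are set medians and the vertical axes do not start at 0. KO set 2 stands apart in ENO3 (1.10 to 1.44%), KO set 3 in PFKM (46.9 to 50.8%) and ENO1, and KO set 5 in LDHB (56.3 to 59.2%).

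The phosphofructokinase family was spread nearly evenly over its subunits, and over libraries none of its genes passed in edgeR and none of its shares in the permutation test. PFKL, the liver subunit (ENSG00000141959, chr21:44300051-44327376, plus strand), PFKM, the muscle subunit (ENSG00000152556, chr12:48105139-48146404, plus strand), and PFKP, the platelet subunit (ENSG00000067057, chr10:3066333-3137718, plus strand), gave 39 to 385 UMIs per library. The log2 fold change was 0.01 for PFKL (95% interval -0.17 to 0.19, adjusted p = 0.956), 0.13 for PFKM (interval 0.0078 to 0.24, adjusted p = 0.102) and 0.03 for PFKP (interval -0.16 to 0.23, adjusted p = 0.832), all from edgeR. The mean shares were 27.7, 36.6 and 35.8% in Control and 26.6, 38.3 and 35.1% in KO libraries for PFKL, PFKM and PFKP, with permutation p of 0.428, 0.385 and 0.676. With sets as the unit the differences in share were -2.39, 1.999 and 0.390 points (exact permutation p = 0.369, 0.607 and 0.881). The gene PFKM passed in edgeR under other settings, with library size alone (adjusted p = 0.0427), with surrogate variables (adjusted p = 0.0385), after thinning (adjusted p = 0.0399) and without the KO library AATACA (adjusted p = 0.0477).

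Beside these similar means, the KO libraries were more widely spread. The PFKM share varied little beyond counting noise among Control libraries (SD 2.11 points, n = 11, chi-square per degree of freedom 1.07) and far more among KO libraries (SD 6.51 points, n = 26, chi-square per degree of freedom 8.09). The 6 libraries of KO set 3 had PFKM shares of 46.9 to 50.8%, and the other 20 KO libraries lay between 29.0 and 41.4%, on either side of the Control range of 34.1 to 40.2%. In KO set 3 the PFKL share was 19.2 to 25.6% and the PFKP share 26.5 to 32.7%. KO set 2 and KO set 5 sat at the other end, with median PFKM shares of 32.4 and 32.2%. Between sets lay 89.3% of the sum of squares of the PFKM share among the 25 KO libraries in sets, and 25.9% among the 10 Control libraries in sets. The PFKM share was higher where depth was higher in both groups. Spearman rho of share and total UMIs was 0.64 in KO (n = 26) and 0.60 in Control libraries (n = 11). The part of depth was not tested. SENP1 overlaps the start of PFKM on the opposite strand and gave 5264 UMIs against 7047 of PFKM.

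Both lactate dehydrogenase subunits were lower in the KO libraries, and LDHA more so. LDHA, the subunit of muscle-type enzyme (ENSG00000134333, chr11:18394560-18408425, plus strand), gave 853 to 6796 UMIs in Control and 988 to 5993 in KO libraries and fell by 0.24 on the log2 scale (SE 0.08, adjusted p = 0.0119, edgeR). LDHB, the subunit of heart-type enzyme (ENSG00000111716, chr12:21635342-21757857, minus strand), fell by 0.12 (SE 0.04, adjusted p = 0.0285, edgeR), a call that was lost without any 1 of 5 Control libraries (adjusted p from 0.0563 to 0.0674, the highest without GTTTAT) and under 4 other settings (adjusted p from 0.0522 to 0.0969). LDHA lay at 10.29, 10.48 and 10.61 log2 CPM in Control and 9.80, 10.23 and 10.59 log2 CPM in KO libraries at its lowest, median and highest, and 14 KO libraries lay below every Control library. The LDHB levels were 10.36, 10.49 and 10.71 log2 CPM in Control and 10.17, 10.41 and 10.59 log2 CPM in KO libraries. Over the 26 KO libraries, Spearman rho of level and total UMIs was 0.66 for LDHA and 0.59 for LDHB. The part of depth in these differences was not tested.

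The LDHB share of lactate dehydrogenase UMIs was 50.7% ± 2.07 (SD, n = 11) in Control against 53.1% ± 2.83 (SD, n = 26) in KO libraries, a difference of 2.36 points (SE 0.834, permutation p = 0.0179). The difference was 1.23 points among AT-rich barcodes alone (exact permutation p = 0.254, 12 KO and 8 Control), and 1.85 points with sets as the unit (exact permutation p = 0.321). KO set 5 had the highest shares, 56.3 to 59.2%, beside the lowest LDHA levels, 9.80 to 9.84 log2 CPM. KO set 1 (48.5 to 51.9%) and KO set 3 (48.5 to 52.4%) stayed within the Control range of 46.9 to 52.9%. KO set 5 has no library with an AT-rich barcode, so its part in the barcode comparison and that of the barcode cannot be told apart. The LDHB share was higher where depth was lower among KO libraries (Spearman rho of share and total UMIs -0.64, n = 26). Among the 11 Control libraries rho was -0.04. The part of depth in the LDHB share difference was not tested. No single pseudogene of LDHA, LDHB or HK2 gave more than 0.259% of the UMIs of its gene.

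Summed over isozymes, the hexokinase family stood at 455 ± 34.9 CPM after TMM scaling (SD, n = 11) in Control against 479 ± 58.2 CPM (SD, n = 26) in KO libraries, and phosphofructokinase at 194 ± 15.9 and 202 ± 21.1 CPM. Enolase stood at 2527 ± 89.2 and 2375 ± 304 CPM, and lactate dehydrogenase at 2867 ± 164 and 2530 ± 313 CPM, with 16 KO libraries below every Control library. These sums were not tested. Some isozymes outside the list were rare: over all 37 libraries HKDC1 gave 1 UMI, ENO4 1, LDHC 5 and LDHAL6A 95, and none of these passed the filter.

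Among 15 other glycolysis genes tested, 4 were higher and 4 lower over libraries, beside 17.7% and 16.2% of all genes tested. Another 7 did not pass. The median log2 fold change was -0.09 over the 15 genes and -0.0046 over all genes tested. The glucose importers SLC2A1 (log2 fold change 1.03, SE 0.14) and SLC2A3 (0.86, SE 0.09) were higher, with BPGM (0.68, SE 0.10), which makes the haemoglobin effector bisphosphoglycerate in red cells, and TIGAR (0.59, SE 0.18), which lowers the activator of phosphofructokinase. GPI (-0.29, SE 0.06), the isomerase between hexokinase and phosphofructokinase, GAPDH (-0.22, SE 0.05), ALDOA (-0.14, SE 0.03) and the lactate carrier SLC16A1 (-0.16, SE 0.06) were lower. With sets as the unit, SLC2A3 passed when GGCCAC was left out, and with it none of the 16 genes of the list tested in that fit passed in edgeR or limma-voom, where 6 had an unadjusted p under 0.05 in edgeR, beside 12.3% of all genes in that fit.

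**Figure D5:**
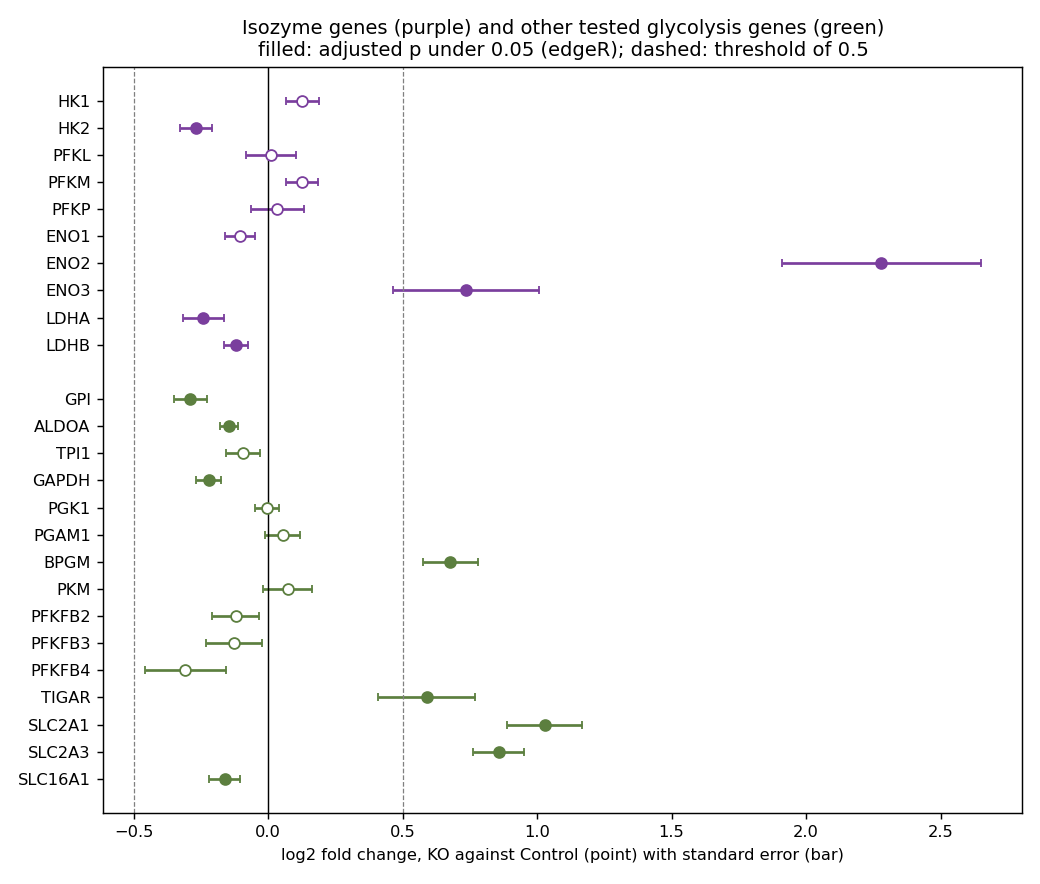
Log2 fold change of KO against Control libraries (point) with its standard error (bar) for the 10 isozyme genes (purple) and 15 other glycolysis genes (green); filled points passed an adjusted p of 0.05 in edgeR over libraries and dashed lines mark 0.5. ENO2 lies farthest right at 2.28, and HK2, LDHA and LDHB lie left of 0 with GPI and GAPDH.

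Genes were also ranked by how closely their level followed each isozyme gene over the 26 KO libraries, by Spearman rho among 8605 candidate genes. ENO2 was followed most closely by PELI2 (0.93), CMAS (0.92) and OTUD5 (0.91), and LDHA by CACYBP (0.95), PPA1 (0.94) and IARS2 (0.93). LDHB was followed by SLC25A4 (0.93), NIP7 (0.92) and TIMM17A (0.92), PFKL by BSDC1 (0.91), HK1 by MALT1 (0.89) and PFKM by DLK1 (0.78). HK2 had no close follower, with USP24 and B3GNT5 at 0.72. Over the 11 Control libraries, in the same order, rho was 0.21, -0.63 and 0.07 for ENO2 and 0.64, 0.29 and 0.33 for LDHA. For LDHB it was 0.66, 0.57 and 0.26, for PFKL 0.14, for HK1 0.58 and for PFKM 0.05. HK2 had -0.26 with USP24 and 0.35 with B3GNT5 there. Since the libraries lie in sets, the 26 points are not independent, and no p is given.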

How the data were processed

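Bulk SCRB-seq libraries of K562 cells, 26 KO and 11 Control, were analysed. The authors aligned reads to hg38 using STAR (2.6.0a in the submitters' processing notes), ran zUMIs on the Ensembl GRCh38.84 genes and deposited raw UMI counts. Symbols and positions came from GENCODE on GRCh38, which named 31323 of 32055 identifiers. Counts were fitted in edgeR 4.0.16 (R 4.3.3) with the default filter, TMM, robust quasi-likelihood and Benjamini-Hochberg adjustment over 10661 genes. An isozyme share is its UMIs over those of its family in a library. Shares were compared by two-sided permutation tests with 100000 resamples, or exact tests where a group held fewer than 10 values. Log2 CPM used a prior count of 2. AT-rich barcodes hold at most 2 G or C of 6 bases. Sets were cut at a distance (1 minus Pearson's r of log2 CPM) of 0.02, among genes with a mean log2 CPM above 5. At 0.025 the 5 KO sets were identical and the Control sets merged.

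The isozyme genes and the list of other glycolysis genes were chosen with earlier results of these data known. The genes named for likeness were the highest by rho for each isozyme gene. The sets of libraries were seen in the data and their use as the unit was added afterwards. Pairs of libraries were compared by chi-square over genes with at least 10 UMIs in the pair. None of 380 pairs within a group agreed within sampling noise (largest chi-square p = 3.31e-23), and no libraries were merged in the tests over libraries. Taken over many genes, this chi-square fails at any small spread beyond counting noise. Repeat libraries of the same clone could fail it too, so it cannot decide which libraries are repeats. With sets as the unit, UMI counts were summed over the libraries of a set for the fits, and shares were averaged over them. Alternatives were limma-voom (limma 3.58.1), DESeq2 1.42.0, other scalings and filters, barcode class, 7 surrogate variables (sva 3.50.0), thinning and leaving out libraries. The fit was tested on simulated data.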

Additional observations from a re-analysis of the deposited data

How the results depend on the processing

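The unit of replication had the largest effect. With sets of like libraries as the unit, the share differences that no longer passed were -0.699 points for ENO1, 0.451 for ENO2, 0.248 for ENO3 and 1.85 for LDHB, or -0.803, 0.547, 0.256 and 2.21 without GGCCAC, and PFKP turned to 0.390 and 0.131. Genes called numbered 1 and 237, isozyme genes passing 0 and 0, and other glycolysis genes higher 0 and 1 and lower 0 and 0, with PFKL at -0.0243 and -0.0068. The HK2 share kept its call in both. With libraries as the unit, genes called numbered 1085, against 1720 without a filter on low counts, 672 at a mean of at least 10 CPM and 614 after thinning to the smallest total. The isozyme genes passing numbered 5, against 3 without the filter, 3 among AT-rich barcodes and 8 with surrogate variables. Among AT-rich barcodes the PFKL share turned to 0.421 points and the LDHB share lost its call at 1.23. In 1 thinning the PFKM share reached 5.82 points (permutation p = 0.0237), but the mean of 100 thinnings was 1.85, and ENO3 lost its call at 0.270. The log2 fold change of PFKL was -0.0029 with limma-voom, -0.0022 without the filter, -0.0517 with surrogate variables and -0.0062 after thinning, and that of PFKP -0.0038 with limma-voom, -0.0284 with barcode class, -0.0907 with surrogate variables, -0.0869 among AT-rich barcodes and -0.13 after thinning. The cause was not tested. ENO3 did not pass in limma-voom (0.46, adjusted p = 0.0989), nor without the filter (adjusted p = 0.0961). HK2 did not pass among AT-rich barcodes (-0.23, adjusted p = 0.0616) or after thinning (-0.19, adjusted p = 0.185), nor LDHA among AT-rich barcodes (adjusted p = 0.0512). LDHB did not pass with library size alone (adjusted p = 0.0969), without the filter (0.0739), with barcode class (0.0522) or after thinning (0.0964).

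Leaving out each library in turn gave 3 to 6 isozyme genes passing, the lowest without the Control library AAAGTT or the Control library TTGAAA, log2 fold changes of PFKL from -0.0114 to 0.0694, and ENO2 share differences from 0.602 to 0.665 points. ENO3 lost its call without library AAAGTT, library TCTGCA or library TTGAAA, and LDHB without library AAAGTT, library AAGATT, library GTTTAT, library TTAATC or library TTGAAA. No paired analysis was possible because the labels carry no replicate numbers. ENO2 and ENO3 rest on as few as 7 and 4 UMIs per Control library, which limits their shares.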
